A study of Mus musculus with 9 samples.

Results

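The canonical Wnt pathway ends at a small set of nuclear proteins, and 9 genes that encode them are described here in mouse tracheal myoepithelial cells with and without a Lef-1 knock-in allele. They are Lef1, its TCF paralogs Tcf7, Tcf7l1 and Tcf7l2, the Groucho co-repressor genes Tle1, Tle2, Tle3 and Tle4, and Ctnnb1, which encodes beta-catenin. They were taken by symbol from a deposited table of 13336 genes, and all 9 were found in it. The libraries number 5 with the label Lef1KI and 4 with the label WT, and each is named by its column letter, from A to E in Lef1KI and A, B, D or E in WT. Each library is RNA from 1 pool of 3 to 5 mice, and the sources used here give no age for the mice. Both groups carried ACTA2-CreERT2, a Cre recombinase that tamoxifen activates and that the promoter of smooth muscle actin drives, and tamoxifen was given to both for 5 days. Lef1KI mice also carried Lef-1KI+/+ and WT mice ROSA-TG; what drives the Lef-1 allele is not given here. Cells of both groups were cultured to passage 1 with 10 µM Y-27632 and with 1 µM each of DMH-1 and A83-01, which inhibit BMP and TGF-beta receptors, and of CHIR 99021, which inhibits GSK3 and so stabilises beta-catenin. WT cells were sorted as GFP+ and Lef1KI cells as GFP-, so the gate and the genotype cannot be told apart in any comparison below.

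LEF1 and the TCF proteins bind DNA through a shared HMG box and activate or repress transcription according to their partner. Beta-catenin, when stabilised by Wnt signals, joins them as the co-activator, and in its absence the Groucho (TLE) proteins join them as co-repressors. TCF7L1 is best known as a repressor, LEF1 and TCF7 more often as activators. In the airway, Lef1 is known for its role in the formation of submucosal gland buds.

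The starts of the 9 genes were searched for the core site of TCF/LEF proteins in RefSeq promoter windows (GRCm38.p6, 250 bases before to 50 after each annotated start). Of all 32851 windows, 3.73% held CTTTGAT on either strand, 5.14% held CTTTGAA, 5.85% held CTTTGTT and 3.63% held CTTTGTA. Motifs of 7 bases can overlap each other. All 9 had a window, 16 windows in all, and 2 of the 16 (12.5%) held a match, beside 16.9% of all windows. The 2 matches lie at starts inside Lef1 and Tcf7l2 and are shown with the motif, or its reverse complement, in capitals and with 10 bases on either side.
Lef1, chr3:131156137-131156163, plus strand: aacctcagaaTACAAAGtaggattgca
Tcf7l2, chr19:55895297-55895323, plus strand: aaatatcaggCTTTGTTcttttgattg
The Lef1 match begins 147 bases before its start, and the Tcf7l2 match 14 bases before its start. The 250 bases before the outermost start of Tle4 are shown because Tle4 is the co-repressor gene that rose, and they held none of the 4 motifs.
Tle4, chr19:14598184-14598433, minus strand: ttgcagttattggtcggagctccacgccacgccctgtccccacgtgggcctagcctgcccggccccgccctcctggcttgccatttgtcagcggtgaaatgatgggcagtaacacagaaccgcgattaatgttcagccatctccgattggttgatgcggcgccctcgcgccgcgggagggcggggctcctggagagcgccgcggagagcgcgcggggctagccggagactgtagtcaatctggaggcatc
This stretch has 65.2% G and C and 24 CpG dinucleotides. A match is a description of letters in a window, and a window without one says nothing of where LEF1 binds.

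Libraries had a median log2(TPM + 1) of 3.58 to 3.97, where TPM (transcripts per 1000000) is a share of all transcripts that takes account of transcript length, so that genes can be compared with each other. Sequencing depth cannot be read from TPM, so errors are those between libraries. Of all genes 7.97% passed the test of Lef1KI against WT (limma, adjusted p under 0.05), 6.73% higher and 1.24% lower in Lef1KI. The basal keratin genes Krt5 and Krt14 lay between 5308 and 10540 TPM and between 5815 and 7715 TPM over the 9 libraries, and the basal transcription factor gene Trp63 between 92.6 and 124 TPM. Acta2, which marks the contractile state of myoepithelial cells, lay between 30.1 and 176 TPM, averaging 62.3 ± 31.2 TPM over the Lef1KI libraries (SD, n = 5) against 129 ± 41.0 TPM for WT (SD, n = 4; limma adjusted p 0.0834). Of 12 measured basal markers 2 were called higher and 1 lower, and of 10 measured myoepithelial and smooth muscle markers 1 higher and 1 lower. Cnn1 and Actg2, also listed as myoepithelial and smooth muscle markers, had no values. Under either of the scalings tried, median centring and trimmed-mean scaling, 0 basal markers were higher and 1 lower, and 0 myoepithelial markers were higher and 2 lower.

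Lef1 was the only member whose level rose by orders of magnitude, and 1 other member, Tle4, passed the test. Thus 2 of the 9 members (22.2%) were called, both higher in Lef1KI, beside 6.73% of all genes called higher. Leaving out Lef1, the gene that the allele carries, 1 of 8 members was called. The other 7 members had adjusted p-values between 0.0662 and 0.452. All 9 differences were positive, as were 69.6% of those of all genes. The members had a median log2 difference of 0.36, and all genes one of 0.14. The median of all genes was −0.02 with each library centred on its median and 0.01 with trimmed-mean scaling. The members' median was 0.20 and 0.23. All 9 member differences were still positive, beside 47.3% and 52.0% of those of all genes. The share of all calls that were higher in Lef1KI was 84.5% on the deposited values, 64.6% after the centring and 71.3% after the scaling.

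**Figure D1:**
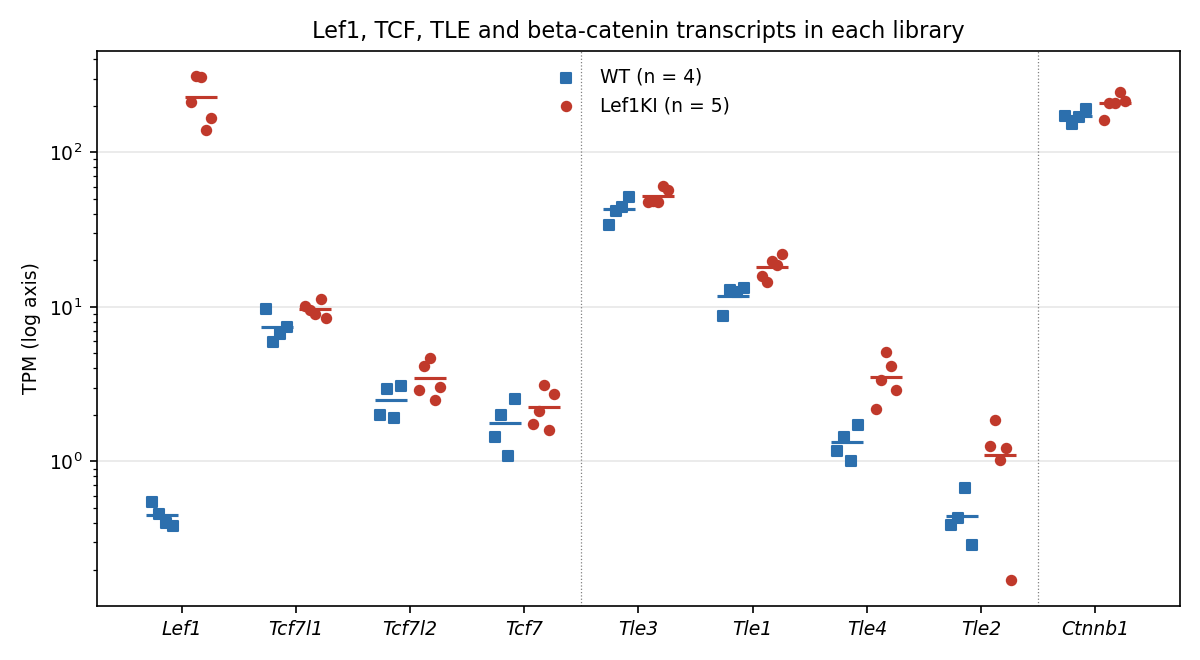
TPM (log axis) of the 9 genes in each WT library (squares, n = 4) and each Lef1KI library (circles, n = 5), with horizontal lines at the group means. Lef1 goes from the bottom of the plot in WT to the level of Ctnnb1 in Lef1KI, and Tle4 and Tle1 are the other genes whose groups do not overlap.

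Lef1 was 1 of the 2 least abundant members in WT and among the most abundant in Lef1KI. Its gene lies on chromosome 3 (131110471 to 131224356, plus strand, mm10). It had 210, 312, 309, 139 and 166 TPM in Lef1KI A to E, and 0.55, 0.46, 0.38 and 0.40 TPM in WT A, B, D and E. Every Lef1KI library was thus far above every WT library, with a difference of 7.23 on the log2(TPM + 1) scale (SE 0.24, limma adjusted p 5.2e-08). By rank in the table, Lef1 stood between place 410 and place 875 of 13336 in the Lef1KI libraries and between place 12091 and place 12633 in WT. The ratio of the mean TPM values was 508. Within Lef1KI the level varied by more than 2 times, with B and C high and D and E low, a coefficient of variation of 35.1%, beside 11.2% (Tcf7l1) to 55.1% (Tle2) for the other 8 members in the same libraries. Gene-level TPM cannot tell knock-in from endogenous Lef1 RNA, nor its isoforms, of which GENCODE M21 lists 8.

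Among the TCF paralogs, Tcf7l1 was the most abundant in each of the 9 libraries. It had 10.2, 9.57, 9.02, 11.3 and 8.52 TPM in Lef1KI A to E, and 9.73, 5.96, 7.39 and 6.69 TPM in WT A, B, D and E. The groups overlapped through WT A, and the difference was 0.36 (95% interval −0.004 to 0.72, limma adjusted p 0.216). Tcf7l2, whose product is the main TCF of the intestinal epithelium, had 2.92, 4.14, 4.67, 2.51 and 3.02 TPM in Lef1KI A to E, and 1.99, 2.95, 3.10 and 1.91 TPM in WT A, B, D and E. The difference was 0.35 (95% interval −0.06 to 0.76, limma adjusted p 0.282). Tcf7, which encodes TCF1 and is best known from T cells, had 1.75, 2.13, 3.11, 1.60 and 2.74 TPM in Lef1KI A to E, and 1.44, 2.0, 2.54 and 1.09 TPM in WT A, B, D and E. Its difference was 0.25 (95% interval −0.18 to 0.67, limma adjusted p 0.452). For both genes WT B and D were the high WT libraries, and both groups overlapped. None of the 3 paralogs passed the test, and the upper limits of their intervals, 0.72, 0.76 and 0.67, are the largest rises these libraries leave within the interval.

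Lef1 therefore made up most of the Lef1 and TCF transcripts in every Lef1KI library and few in every WT library. Its share of the summed TPM of the 4 genes was 93.4%, 95.2%, 94.8%, 90.0% and 92.1% in Lef1KI A to E, and 4.01%, 4.05%, 2.83% and 3.96% in WT A, B, D and E. Per TPM of Tcf7, Tcf7l1 and Tcf7l2 together, there were 14.1, 19.7, 18.4, 9.04 and 11.6 TPM of Lef1 in Lef1KI A to E. The same ratio was 0.0418, 0.0422, 0.0292 and 0.0413 in WT A, B, D and E. Taken one paralog at a time, the median ratio of Lef1 in Lef1KI was 20.6 to Tcf7l1, 66.1 to Tcf7l2 and 99.3 to Tcf7, and in WT it was 0.0582, 0.183 and 0.298. The 3 paralogs without Lef1 summed to 14.3 to 16.8 TPM in Lef1KI and to 9.69 to 13.2 TPM in WT, ranges that did not overlap on the deposited values. They did overlap after median centring (12.7 to 15.9 TPM against 10.3 to 15.9 TPM) and after trimmed-mean scaling (12.5 to 15.8 TPM against 10.2 to 14.8 TPM). Their composition overlapped too: Tcf7l1 was 53.7% to 73.3% of that sum in Lef1KI and 54.6% to 73.9% in WT. The shares and ratios, unlike the sum, are taken within a library and do not depend on how TPM are multiplied between libraries.

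**Figure D2:**
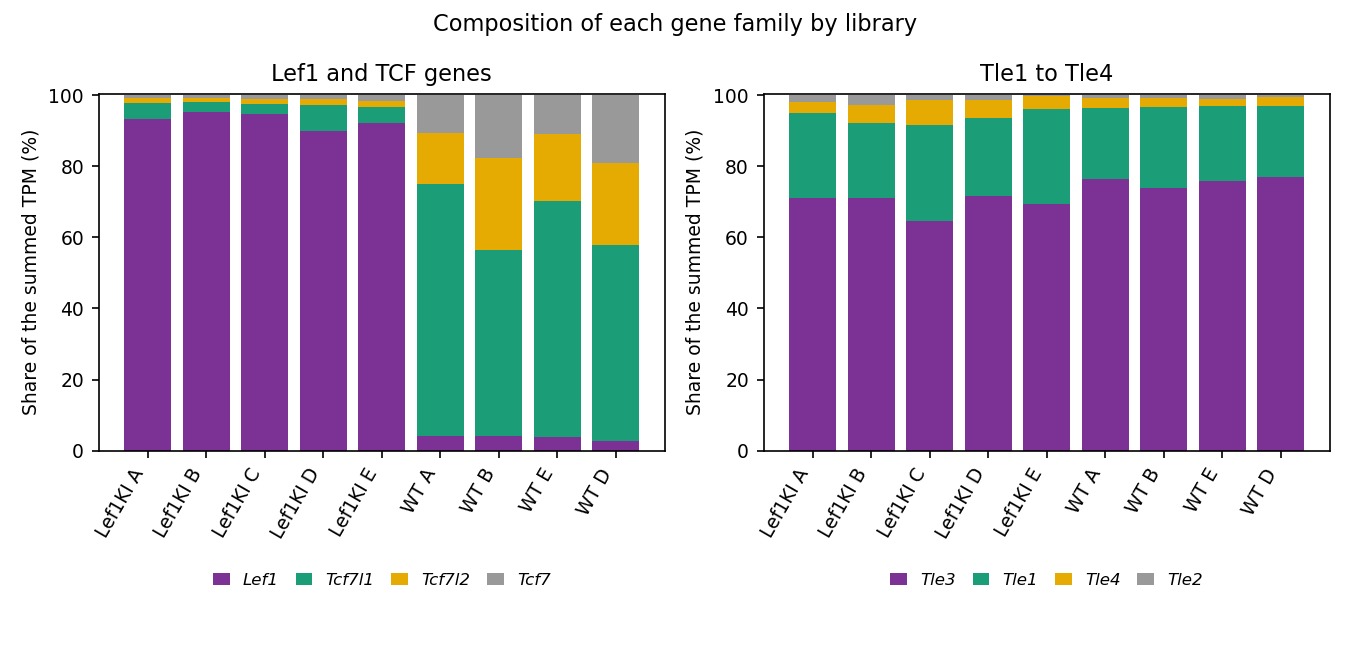
Share (%) of each gene in the summed TPM of Lef1, Tcf7l1, Tcf7l2 and Tcf7 (left) and of Tle1 to Tle4 (right), 1 bar per library. Lef1 takes 90.0% to 95.2% of the left bars in Lef1KI and 2.83% to 4.05% in WT; Tle3 is the largest part of every bar on the right.

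Among the co-repressors, Tle4 rose. The gene lies on chromosome 19 (14448150 to 14598051, minus strand, mm10) and had 2.17, 3.35, 5.13, 4.14 and 2.88 TPM in Lef1KI A to E, and 1.17, 1.44, 1.73 and 1.01 TPM in WT A, B, D and E. No Lef1KI library was as low as any WT library, with C and D the highest and A the lowest of their group. The difference was 0.93 on the log2(TPM + 1) scale (95% interval 0.50 to 1.36, limma adjusted p 0.0147), which is 0.79 above the median of all genes and larger than the difference of 95.3% of them. The means were 3.53 ± 1.14 TPM (SD, n = 5) and 1.34 ± 0.316 TPM (SD, n = 4), a ratio of 2.64. The call ended without WT E, where the difference was 0.86 (limma adjusted p 0.0564), and held in the other 15 alternatives, with differences between 0.77 and 1.31.

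Tle1 had groups that did not overlap but missed the threshold. It had 15.8, 14.4, 19.8, 18.6 and 21.9 TPM in Lef1KI A to E, and 8.79, 12.8, 13.3 and 12.4 TPM in WT A, B, D and E. The lowest Lef1KI library was only just above the highest WT library. The difference was 0.58 (95% interval 0.20 to 0.95, limma adjusted p 0.0662). Lef1, Tle4 and Tle1 were the 3 members (33.3%) with every Lef1KI library above every WT library, which was so for 10.0% of all genes, and no member had every library below, as 1.89% of all genes did. These 3 also did not overlap after either scaling, beside 5.60% of all genes after median centring and 7.03% after trimmed-mean scaling. Tle3, by far the most abundant of the 4, had 47.7, 48.1, 47.7, 60.6 and 56.6 TPM in Lef1KI A to E, and 33.7, 41.5, 51.6 and 44.1 TPM in WT A, B, D and E. Its groups overlapped through WT D, and the difference was 0.29 (95% interval −0.02 to 0.60, limma adjusted p 0.235).

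Tle2 was near the bottom of the table. It had 1.26, 1.86, 1.02, 1.23 and 0.17 TPM in Lef1KI A to E, and 0.39, 0.43, 0.29 and 0.67 TPM in WT A, B, D and E. Lef1KI E lay below every WT library and the other 4 Lef1KI libraries above them. With all libraries the difference was 0.49 (95% interval 0.01 to 0.97, limma adjusted p 0.20), and without Lef1KI E it was 0.69 and passed (limma adjusted p 0.0115). Its mean was 2.12 SD in Lef1KI and 3.35 SD in WT, so by the authors' filter of 3 SD it is in the table through the WT group.

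The make-up of the Tle transcripts is given as shares, which have no test. Tle3 was 64.8% to 71.7% of the summed Tle1 to Tle4 TPM in Lef1KI and 73.9% to 77.1% in WT, and Tle4 was 3.24% to 6.96% and 1.74% to 2.65%. In neither case did the groups overlap. Tle1 was 21.3% to 26.9% in Lef1KI and 19.9% to 22.8% in WT, with overlap. The 4 genes together had 66.9 to 84.5 TPM in Lef1KI and 44.1 to 66.9 TPM in WT. At this precision the lowest Lef1KI library was level with the highest WT library. The sums did not overlap after median centring (65.5 to 78.3 TPM against 52.4 to 65.1 TPM). They did overlap after trimmed-mean scaling (66.1 to 81.0 TPM against 49.6 to 66.5 TPM). For each TPM of these co-repressor genes, Lef1 and the TCF genes had 1.83 to 4.84 TPM in Lef1KI and 0.174 to 0.311 TPM in WT. Without Lef1, the same ratio was 0.175 to 0.234 in Lef1KI and 0.167 to 0.298 in WT, and the groups overlapped.

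**Figure D3:**
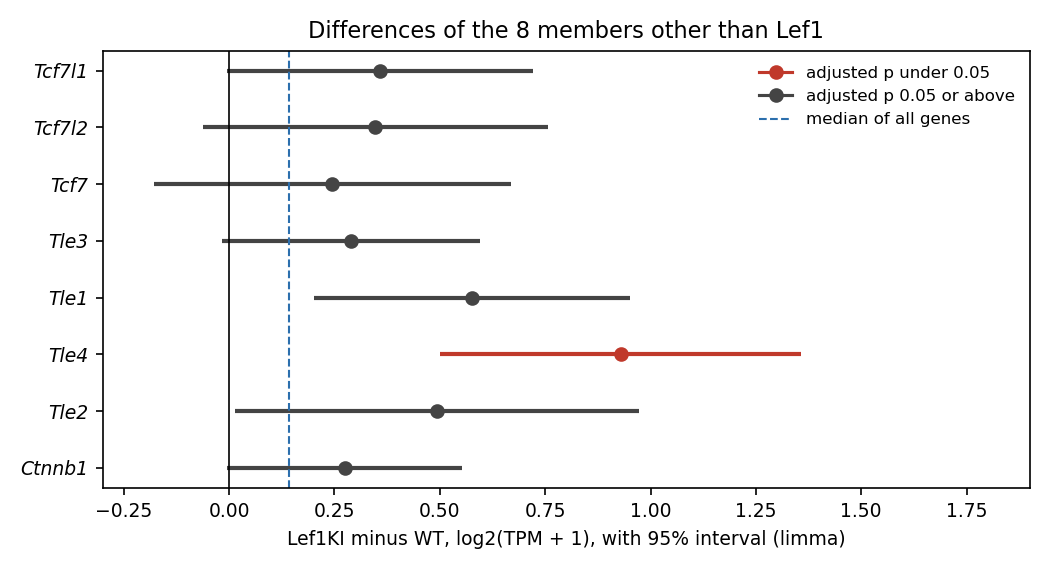
Differences between Lef1KI and WT on the log2(TPM + 1) scale for the 8 members other than Lef1, with 95% limma intervals, and the median of all genes (0.14) as a dashed line. Tle4 is the gene with an adjusted p under 0.05; the lower limits of Tle4 and Tle1 (0.50 and 0.20) lie above the dashed line.

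Ctnnb1 was expressed at a high level in both groups. It had 162, 208, 208, 247 and 214 TPM in Lef1KI A to E, and 172, 151, 192 and 168 TPM in WT A, B, D and E. Lef1KI A was among the WT values, and the difference was 0.27 (95% interval −0.005 to 0.55, limma adjusted p 0.218). There were 12.6 to 16.7 TPM of Ctnnb1 per TPM of Lef1 and TCF transcripts in WT and 0.637 to 1.59 TPM in Lef1KI. In Lef1KI A, B and C Lef1 had more TPM than Ctnnb1, and in D and E less.

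In WT the members ran from Ctnnb1 through Tle3, Tle1, Tcf7l1, Tcf7l2, Tcf7, Tle4 and Lef1 to Tle2. Neighbours whose ranges over the 4 libraries overlapped were Tle1 and Tcf7l1, Tcf7l2 and Tcf7, Tcf7 and Tle4, and Lef1 and Tle2. In Lef1KI the order was Lef1, Ctnnb1, Tle3, Tle1, Tcf7l1, Tle4, Tcf7l2, Tcf7 and Tle2. There Lef1 and Ctnnb1 overlapped, and so did each neighbouring pair from Tle4 down. Tle4 was below Tcf7 in all 4 WT libraries and above it in all 5 Lef1KI libraries.

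Transcripts that mark fibroblasts and endothelial cells were higher in the Lef1KI libraries. Of 4 measured melanocyte and Schwann cell markers, 0 were called higher and 0 lower (median log2 difference −0.1). Of 14 measured fibroblast and stromal markers 12 were called higher in Lef1KI and none lower (median log2 difference 2.25), and of 10 endothelial markers 7 were higher and none lower (median 1.78). The fibroblast and stromal markers summed to 823, 596, 1234, 1032 and 405 TPM in Lef1KI A to E, and to 118, 142, 184 and 159 TPM in WT A, B, D and E. Lef1KI C and D, the libraries with the most stromal transcripts, also had the highest Tle4, but Lef1KI A had the lowest Tle4 of its group at the third highest stromal sum. Lef1KI E, with the lowest stromal sum of its group, had the highest Tle1. The part of these transcripts' cells of origin in the Tle4 and Tle1 values was not tested, and in bulk RNA fewer cells of a type cannot be told apart from less RNA per cell. T cells are known for high Tcf7 and Lef1. Of 20 listed leukocyte markers 6 were measured, and the T cell genes Cd3d, Cd3e, Cd3g, Cd4 and Cd8a were among those without values. Of these 6 markers 2 were higher in Lef1KI and none lower (median log2 difference 0.29): the myeloid gene Lyz2 and the leukocyte gene Coro1a. The Coro1a call was lost after median centring, under a block by column letter, and with either WT B or WT E left out. The 6 markers summed to 6.74 to 14.1 TPM in Lef1KI and to 1.54 to 4.72 TPM in WT. The T cell genes among them, Lck and Cd28, did not pass: Lck averaged 1.35 ± 0.546 TPM in Lef1KI (SD, n = 5) against 0.835 ± 0.454 TPM in WT (SD, n = 4), and Cd28 0.166 ± 0.094 against 0.135 ± 0.0265 TPM.

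**Figure D4:**
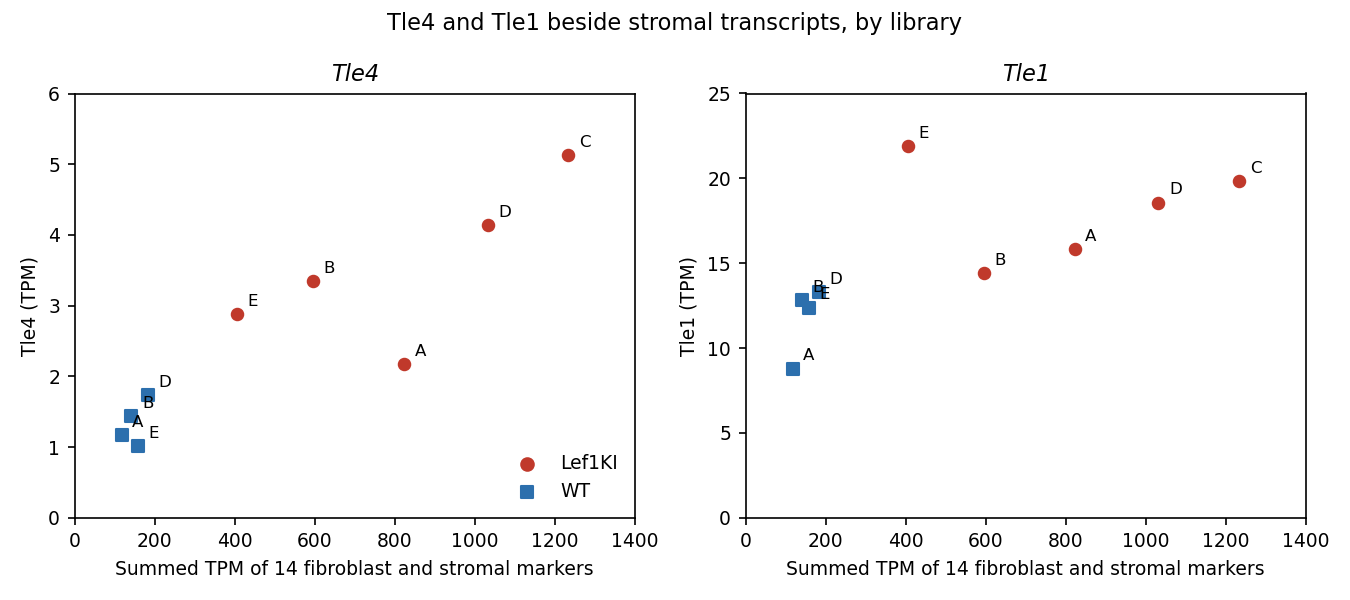
Tle4 (left) and Tle1 (right) in TPM against the summed TPM of 14 fibroblast and stromal markers in the same library, WT as squares and Lef1KI as circles, each with its letter. All Lef1KI libraries lie to the right of the WT libraries, from 405 to 1234 TPM against 118 to 184 TPM.

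The genes whose profile over the 9 libraries was nearest to that of each called member were found by the root mean square difference of the log2 deviations from each gene's own mean, over 12116 other genes with a descriptive symbol. Of these, the lipocalin gene Apod (1.62), the guanylate-binding protein gene Gbp2b (1.70) and the chemokine gene Cxcl13 (1.84) came nearest to Lef1, none of them close. The measure counts the size of a change. Genes with a Gm number or Rik in the symbol were left out of the search. Among those, Gm10260 rose by 9.96, Gm11361 by 8.27, Gm12191 by 7.77 and 4732456N10Rik by 6.38, beside 7.23 for Lef1 and 4.33 for Apod. Unlike Lef1, Apod was highest in Lef1KI A, at 646 TPM, and Cxcl13 in D, at 272 TPM, the library where Lef1 was lowest. Tle4 had near neighbours in Exoc3l4 (0.12), Adamtsl1 (0.14) and Fam26e (0.145), which were all highest in Lef1KI C and lowest of that group in A, as Tle4 was. These genes were picked for likeness over the same 9 libraries, so the shared highest and lowest libraries are not a separate result.

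Few of the genes whose products work with these proteins passed the test. Of 14 nuclear cofactor genes of TCF/LEF and beta-catenin, among them Bcl9, Pygo2, Ep300 and Crebbp, limma called 0 (2 had an unadjusted p under 0.05), with a median log2 difference of 0.15. Of 18 genes of the beta-catenin destruction complex and its regulators, among them Apc, Axin1 and Gsk3b, limma also called 0 (2 with an unadjusted p under 0.05, median 0.11). These 2 went opposite ways: Tnks2 was higher in Lef1KI (0.34, limma adjusted p 0.0514) and Axin2 lower (−0.49, limma adjusted p 0.177). Of 15 other repressors and inhibitors 1 was higher and none lower (median 0.16): Hic1, a repressor gene whose product can sequester TCF proteins, averaged 2.01 ± 0.291 TPM (SD, n = 5) in Lef1KI libraries against 0.923 ± 0.459 TPM in WT (SD, n = 4; log2 difference 0.67, limma adjusted p 0.0277). That call ended under both scalings and without Lef1KI C (0.63), Lef1KI D (0.68), WT B (0.71), WT D (0.60) or WT E (0.56). Aes, chosen after its values were seen, encodes a short Groucho-related protein without the C-terminal repeats; at 229 ± 12.6 TPM in Lef1KI and 261 ± 23.3 TPM in WT it was more abundant than Tle1 to Tle4 together (log2 difference −0.19, limma adjusted p 0.251).

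Of 12 junctional partners of beta-catenin 4 were higher and none lower in Lef1KI (median log2 difference 0.36), all of them cadherin genes. Cdh5, the cadherin of endothelial cells, rose by 2.27 to 9.0 ± 5.53 TPM (limma adjusted p 0.00604), and Cdh11, a cadherin of mesenchymal cells, by 1.39 to 6.37 ± 1.94 TPM (limma adjusted p 0.0028). The endothelial and stromal markers given above were higher in the same 5 libraries, and their part was not tested. Cdh1 and Cdh3, the epithelial cadherins, rose by 0.43 and 0.48 (limma adjusted p 0.012 and 0.0419), and both calls ended under both scalings, at 0.27 and 0.32. The call of Cdh1 also ended without WT B (0.39), and that of Cdh3 with no trend in the variance prior (0.48, limma adjusted p 0.0592) and without Lef1KI B (0.46), C (0.44) or E (0.47) or WT B (0.46), D (0.38) or E (0.53). Of 22 listed Wnt target and feedback genes 15 were measured, and Sp5, Dkk1, Dkk4, Ascl2, Bambi, Fgf20 and Sostdc1 had no values. Of the 15, 3 were called higher and none lower (median 0.09, and −0.07 with median centring). The feedback inhibitor genes Apcdd1 and Nkd2 rose by 1.13 and 1.05 (limma adjusted p 0.00826 and 0.00731). Notum rose by 0.47 (limma adjusted p 0.0482). Stromal markers were higher in the same 5 libraries, and their part in these rises was not tested. In this list 6 genes had an unadjusted p under 0.05, and 9 of the 15 differences were positive. Axin2, a feedback gene also in the destruction complex list, was among the 6 but lower in Lef1KI, by −0.49. It averaged 8.52 ± 2.46 TPM in Lef1KI against 12.2 ± 2.28 TPM in WT. Its groups overlapped, and it was not called (limma adjusted p 0.177). The call of Notum held in 1 of the 16 alternatives, the one without Lef1KI C. These lists were chosen with earlier results of these data known, and their counts stand beside the 6.73% of all genes that were called higher and the median difference of 0.14.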

How the data were processed

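RNA of sorted cells was sequenced from stranded TruSeq mRNA libraries, per the labels' protocols. The deposited table holds log2(TPM + 1) values made by the authors with RSEM on mm10, per the submitters' processing notes (aligner and versions not given in the sources used here). Taking the log off, 100.0% of levels below 50 TPM were whole hundredths, with a tolerance of 0.01 hundredth, and libraries summed to 99.6% to 99.84% of 1000000. Every gene had a mean of at least 3 SD in at least 1 group (lowest 3.002). No library pair shared more than 71 equal non-zero values. Column letters are not tied to the replicate numbers of the labels, so columns were assigned to groups by name.

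Groups were compared with limma 3.58.1 (R 4.3.3, trend in the variance prior, group as the only term) on the values of all 13336 genes, two-sided, with Benjamini-Hochberg adjustment over all genes; differences are Lef1KI minus WT, and the log2(TPM + 1) scale understates the change of genes near 0 TPM. The fit was tried on simulated data in which only genes above a set mean level were changed. That trial does not cover members of low level, such as Tle4 and Tle2. P-values set the difference of the groups against the spread between pools, with a variance prior shared over genes. The groups differ in both gate and genotype, which a p-value does not separate. Ratios and shares were computed within a library from TPM and have no test. Named genes are the members, the genes of each pathway list that passed (at most 4 per direction and list), and the 3 genes with the most similar profile to each called member; other genes are named to describe the lists. The members and lists were chosen with earlier results of these data known. List counts are over the listed genes that had values. Positions are from GENCODE M21 (mm10). Overlapping genes were looked up: a single gene with values overlaps a member, Ulk4 on the strand opposite Ctnnb1, at 0.842 and 0.838 TPM in Lef1KI and WT. Whether counting used the strand is not stated. Alternatives were 2 scalings, a pseudocount of 0.1, a filter at 1 TPM, no trend, robust empirical Bayes, a replicate block by column letter and leaving out each library; the overlap of the groups after each scaling was added after seeing the data.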

Additional observations from a re-analysis of the deposited data

Results flagged for a closer look

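In 4 of 70 sets of values (each member and each ratio in each group) the highest or lowest library lay far from the others by Dixon's gap ratio, where chance flags about 1 in 20. In WT, library D had the lowest Lef1 per TPM of the other TCF factors and the lowest Lef1 share of Lef1 and TCF transcripts (gap ratio 0.943 for each, over the same genes); its ratio was 0.0292 beside 0.0413 to 0.0422 in the other WT libraries. WT E had the lowest share of Tle4 among Tle1 to Tle4 transcripts (gap ratio 0.916), at 1.74% beside 2.56% to 2.65%. Lef1KI E had the lowest share of Tle2 (gap ratio 0.734), at 0.209% beside 1.38% to 2.75%. These 2 libraries, WT E and Lef1KI E, are the ones whose removal ended the call of Tle4 and made that of Tle2. The flagged shares hold the same Tle4 and Tle2 values as those fits, so this match is not a separate result.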

How the results depend on the processing

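The 9 members had positive differences under all 16 alternatives, and 142 of the 144 member differences stayed on their side of the threshold, the exceptions being Tle4 without WT E and Tle2 without Lef1KI E. Lef1 differed by 7.07 to 8.63. Leaving out 1 library, 1 to 3 members were called (1 without WT E), and 628 (without WT E) to 1686 genes (without Lef1KI A), with 643 without WT B, against 1063 with all libraries. A replicate block by the 4 letters the groups share, which drops Lef1KI C, gave 486 genes, with Lef1 and Tle4 still called; the deviations of same-lettered libraries correlated at −0.26, 0.02, 0.26 and −0.15 (A, B, D and E), 1 of the 4 WT libraries correlated best with its own letter, and the letters are not shown to pair the libraries. Among the listed genes that block ended the calls of Hic1, Cdh1, Cdh3, Nkd2, Notum, Emcn, Coro1a, Ngfr, Dst and Mylk. Lef1 against the single highest TCF gene was 20.6 in Lef1KI and 0.0582 in WT, beside 14.1 and 0.0415 for the 3 together; medians without 1 library were 12.9 to 16.3 and 0.0413 to 0.0418. All 44 alternatives for the Tle shares, each a mean over libraries or a median without 1 library, stayed within 1 SD. A mean cannot lie more than 1 SD from the median of the same values, so this check says little. Depth is unknown, which limits the genes near 1 TPM (Lef1 in WT, Tle2, Tle4, Tcf7), and 1 library decides the calls of Tle4 and Tle2. The causes were not tested.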
